A study of Mus musculus with 4 samples.

Results

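Pericytes are the mural cells that sit on brain capillaries, embedded in the basement membrane that they share with the endothelium. Here 503 of the 24801 cell barcodes in the series were called pericytes, 181, 166 and 156 of them in the unsorted libraries of mouse 1, 2 and 3. The cells were chosen by their UMIs of the marker genes below. A cell was counted when it passed the quality limits (mitochondrial UMIs below 20%, 1000 to 60000 UMIs in all and 500 to 8000 genes detected), was absent from the authors' metadata file of excitatory neurons, and held at least 6 UMIs of Kcnj8, Abcc9, Higd1b and Vtn together. It also had to hold fewer than 6 UMIs of Acta2, Tagln and Myh11 (smooth muscle), at most 3 of Cldn5 (endothelium), at most 2 of Cx3cr1 and P2ry12 (microglia) and at most 2 of Slc17a7, Gad1 and Gad2 (neurons). A UMI is a molecular tag that counts 1 captured RNA molecule.

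The study profiled single cells of the ventromedial prefrontal cortex (vmPFC, the prelimbic and infralimbic areas) of male C57BL/6 mice. At 8 weeks of age each mouse had received 5 rAAV2-retro viruses, each with EGFP and its own barcode, in the agranular insula, dorsomedial striatum, mediodorsal thalamus, basolateral amygdala and lateral hypothalamus. All libraries share this treatment, and no library of uninjected mice was analysed here. The unsorted libraries hold all dissociated cells, whereas the fourth library (mouse 4-6) holds cells sorted for EGFP, and the labels call the cell type of all 4 libraries virus-labelled neurons, which the pericytes described here are not. Pericytes were compared within each unsorted library with 3 other groups of filtered cells: all 11204 other cells absent from the metadata, 97 smooth muscle cells (at least 6 UMIs of Acta2, Tagln and Myh11 and at most 3 of Cldn5) and 1546 endothelial cells (at least 6 UMIs of Cldn5, fewer than 6 of the pericyte markers and fewer than 6 of the contractile genes). Both of the latter groups met the same microglial and neuronal limits as pericytes.

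Pericytes regulate capillary tone, stabilise the endothelium through PDGF, Notch and TGF-beta signalling, and deposit basement membrane. Their best known channel is the vascular ATP-sensitive potassium (K-ATP) channel, built of the pore subunit Kir6.1 (Kcnj8) and the regulatory subunit SUR2 (Abcc9), which opens when ATP falls and hyperpolarises the cell. Smooth muscle cells, the mural cells of arterioles, differ from pericytes by a full set of contractile proteins.

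The cells carried the transcripts of their label. All 503 held Vtn, 421 held Kcnj8, 393 Abcc9 and 468 Higd1b, and 337 (67.0%) held all 4. Summed per library, Kcnj8 stood at 1321, 1200.1 and 1153 CPM, the UMIs of a gene scaled to 1000000 UMIs of the sum, in mouse 1, 2 and 3, Abcc9 at 951, 948 and 955, Higd1b at 1820.2, 1878 and 2027 and Vtn (vitronectin, a secreted adhesion protein) at 16918, 16406 and 17073 CPM. The other filtered cells averaged 15.6, 20.2, 44.1 and 219 CPM of the same genes in this order. These 4 genes chose the cells, so their levels are a description and were not tested. Kcnj8 (chr6:142564837-142571614) and Abcc9 (chr6:142587862-142702315) lie on the minus strand of the same chromosome (GRCm38).

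Few cells lay near the limits of the gate. The median pericyte held 46 marker UMIs, the lowest 7 and the highest 221. Among cells that met the other 4 gene limits, 4339 held no marker UMI, 49 held 1 to 2, 8 held 3 to 5 just outside the limit, 4 held 6 to 9 just inside it, and 499 held 10 or more. The contractile limit likewise fell in a sparse range, with 5 cells at 3 to 5 UMIs, 0 at 6 to 9 and 22 at 10 or more. The Cldn5 limit cut through a populated range: 38 cells held 1 to 3 UMIs, 7 held 4 to 5, 89 held 6 to 19 and 256 held 20 or more. Those 352 cells of pericyte and endothelial transcripts had a median of 6618.5 UMIs, against 2318 in pericytes and 2860.5 in endothelial cells. They were left out of the pericytes by the Cldn5 limit and remained among the other filtered cells, and no doublet caller was run.

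**Figure D1:**
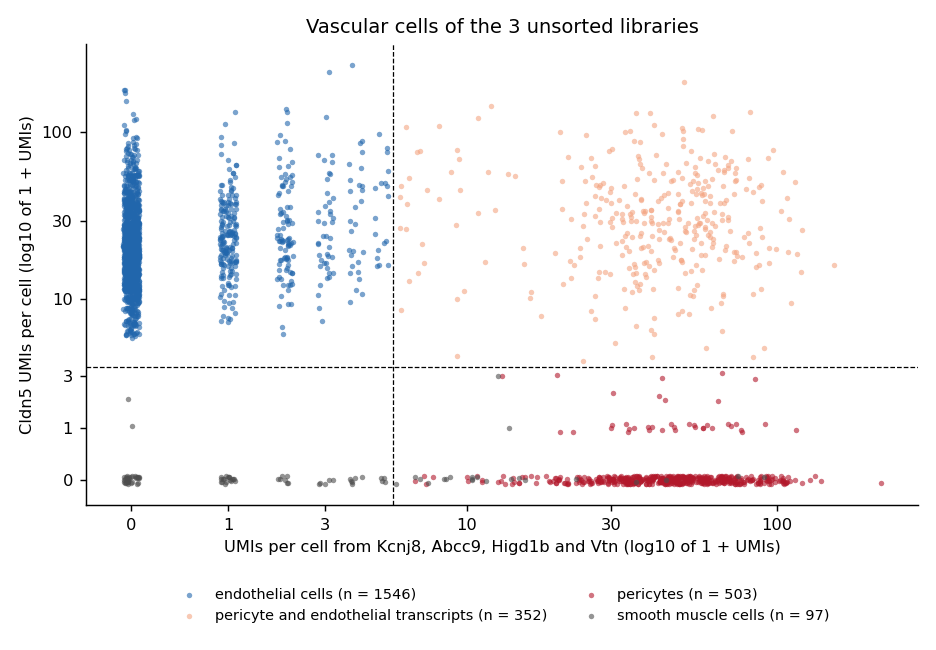
Pericyte marker UMIs (Kcnj8, Abcc9, Higd1b and Vtn) against Cldn5 UMIs per cell, both as log10 of 1 + UMIs with ticks in UMIs, in the 3 unsorted libraries together. Each point is 1 cell, slightly jittered, coloured as pericyte (503), endothelial cell (1546), smooth muscle cell (97) or cell of pericyte and endothelial transcripts (352), and dashed lines mark the limits of 6 marker UMIs and 3 Cldn5 UMIs. Most pericytes sit at 0 Cldn5 UMIs and well to the right of the marker limit.

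The gate also let in a small group of cells that went against the label. In 16 of the 503 cells no UMI of Kcnj8, Abcc9 or Higd1b was found, so that Vtn alone carried them past the limit. These cells were spread over the libraries (5, 6 and 5). In 14 of them at least 3 UMIs of the fibroblast genes Col1a1, Col3a1, Dcn and Lum were found. Together the 14 held 0 UMIs of Rgs5, a regulator of G protein signalling that marks mural cells. They held 469 of the 521 fibroblast UMIs (90.0%) of all pericytes, while 444 pericytes held no fibroblast UMI. A further 2 cells, in mouse 2 and mouse 3, held at least 10 UMIs of the oligodendrocyte genes Mbp, Mog, Mag, Cnp, Mobp and Cldn11 together and 200 of the 317 UMIs of these genes in all pericytes (63.1%). Results that rest on these 18 cells are therefore given with them, as the rule has it, and without them (485 cells, 176, 159 and 150 per library).

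**Figure D2:**
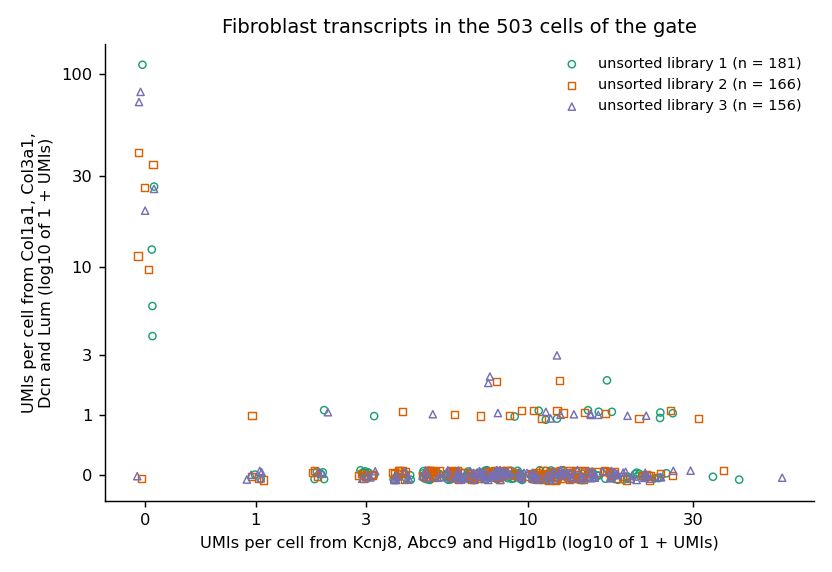
Fibroblast UMIs (Col1a1, Col3a1, Dcn and Lum) against the summed UMIs of Kcnj8, Abcc9 and Higd1b in each of the 503 pericytes, both as log10 of 1 + UMIs with ticks in UMIs and slightly jittered. Symbols mark the 3 unsorted libraries. The 14 cells with no Kcnj8, Abcc9 or Higd1b UMI and at least 3 fibroblast UMIs stand at the upper left, apart from the 444 cells that hold no fibroblast UMI.

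Pericytes made up 4.31%, 4.32% and 4.26% of the filtered cells absent from the metadata (mean 4.30% ± 0.0348, SD, n = 3 libraries), with exact 95% binomial intervals from 3.63% to 5.01% over the libraries. Of all filtered cells they made up 2.58% ± 0.0384. In the sorted library 0 of 188 filtered cells absent from the metadata were pericytes, with an exact 95% binomial interval that reaches 1.94%. A share of captured cells is not a share of the cells in the tissue. The 3 pericyte sums held 426881, 404128 and 393789 UMIs. Their genes differed between libraries by slightly more than counting noise, with a chi-square of 1.21 to 1.39 per gene over the 3 pairs of libraries against 1 for counting noise alone. The range was 1.22 to 1.37 in smooth muscle cells. The labels name 1 mouse per unsorted library, and p-values below measure the spread between these 3 libraries, which may be technical. The median pericyte held 1331 genes and 6.91% mitochondrial UMIs, against 14.2% in smooth muscle cells.

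Promoters of 5 genes that the results turn on are shown, the 250 bases before the start of transcription in RefSeq for GRCm38.p6, read 5′ to 3′ on the strand of the gene. Kcnj8 is the pore of the K-ATP channel (window chr6:142571615-142571864, - strand), and Atp13a5, a P-type transport ATPase, was present in nearly all pericytes (chr16:29378733-29378982, - strand). Nodal, a TGF-beta family ligand, had the largest fold change over the other cells among genes found in at least 25% of pericytes (chr10:61417722-61417971, + strand), Foxd1 is a forkhead transcription factor (chr13:98353995-98354244, + strand), and Notch3 is the Notch receptor of mural cells (chr17:32166891-32167140, - strand). Capitals mark the hypoxia response core ACGTG on either strand.
Kcnj8: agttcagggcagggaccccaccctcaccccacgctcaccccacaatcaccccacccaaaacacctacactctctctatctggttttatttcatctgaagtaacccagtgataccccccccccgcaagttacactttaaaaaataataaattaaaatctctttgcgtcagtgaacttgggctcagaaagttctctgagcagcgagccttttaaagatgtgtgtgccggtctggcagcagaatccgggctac
Atp13a5: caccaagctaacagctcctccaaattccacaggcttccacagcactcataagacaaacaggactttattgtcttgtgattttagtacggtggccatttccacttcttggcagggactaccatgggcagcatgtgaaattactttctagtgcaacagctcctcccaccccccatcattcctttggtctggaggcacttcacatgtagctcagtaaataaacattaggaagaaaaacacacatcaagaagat
Nodal: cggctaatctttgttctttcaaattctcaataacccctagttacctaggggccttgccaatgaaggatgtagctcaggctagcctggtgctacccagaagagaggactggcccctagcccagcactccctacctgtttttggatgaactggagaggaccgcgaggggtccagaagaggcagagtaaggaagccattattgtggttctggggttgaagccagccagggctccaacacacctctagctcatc
Foxd1: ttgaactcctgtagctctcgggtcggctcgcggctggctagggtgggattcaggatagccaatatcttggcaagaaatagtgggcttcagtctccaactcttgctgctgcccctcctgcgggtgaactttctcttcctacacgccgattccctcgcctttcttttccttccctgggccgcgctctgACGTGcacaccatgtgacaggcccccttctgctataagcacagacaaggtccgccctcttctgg
Notch3: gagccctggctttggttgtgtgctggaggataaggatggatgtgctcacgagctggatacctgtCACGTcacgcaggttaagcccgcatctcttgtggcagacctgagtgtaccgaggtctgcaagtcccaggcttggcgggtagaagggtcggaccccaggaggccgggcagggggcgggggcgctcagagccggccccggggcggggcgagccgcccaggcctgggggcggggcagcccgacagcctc

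Motifs were searched on both strands of such windows: TGGGAA, the core bound by the Notch effector RBPJ, ACGTG, the hypoxia response core, and GTAAACA, a forkhead core. No window printed here held TGGGAA or GTAAACA, and ACGTG was found in those of Foxd1 and Notch3. The window of Abcc9, which is not printed, held TGGGAA on the strand of the gene, 221 bases before the start. In all 32851 promoter windows the 3 motifs were present in 21.6%, 16.6% and 3.17%. In the 15 of 20 pericyte marker genes that had a window they were present in 6, 2 and 2, and in the 12 of 15 genes named as highest below in 4, 3 and 0. A match to these letters is not a measured binding site.

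Compared with all other filtered cells, pericytes had more transcripts of pericyte markers, of most listed vasoactive receptors and solute carriers and of mural transcription factors, and fewer of most glial and neuronal markers. The comparison asked how far genes that the gate did not use set pericytes apart from the other non-excitatory cells of the same libraries. Of 14784 genes tested with edgeR's quasi-likelihood test with the library as a block, 5063 (34.2%) were called, a call requiring both an adjusted p below 0.05 and a fold change that reached 1 in size on the log2 scale, 1518 higher (10.3%) and 3545 lower (24%). The median log2 fold change of all genes tested was -0.25. Since the gate separates cell types, genes of those types had to differ, and the values describe by how much. Bulk sums of cells cannot tell fewer cells that express a gene from less RNA of it per cell, so shares of cells are given for the leading genes.

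All 20 pericyte markers that the gate did not use were higher in pericytes (median log2 fold change 5.34). Pdgfrb, the receptor for endothelial PDGF-B, stood at 1488, 1559 and 1491 CPM in pericytes of mouse 1, 2 and 3 and at 37.2, 31.7 and 36.5 CPM in the other cells. The groups did not overlap, and the log2 fold change was 5.47 ± 0.08, adjusted p = 1.92e-36. Rgs5 stood at 6332, 6352 and 6389 CPM against 423, 363 and 398 CPM (4.06 ± 0.06, adjusted p = 9.37e-38). Atp13a5 stood at 1816, 1643 and 1709 CPM against 35.4, 30.2 and 31.1 CPM (5.78 ± 0.08, adjusted p = 8.89e-38). Every pericyte sum of these 3 genes was above every sum of the other cells. The other members ranged from 2.53 ± 0.07 for Cspg4, the NG2 proteoglycan of mural cells and of oligodendrocyte precursors, to 6.11 ± 0.10 for Art3, of the ADP-ribosyltransferase family. The level in the other cells came in good part from cells past the marker limit that another limit kept out: without them the list's median was 7.32 in place of 5.34, and all 20 members remained higher.

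**Figure D3:**
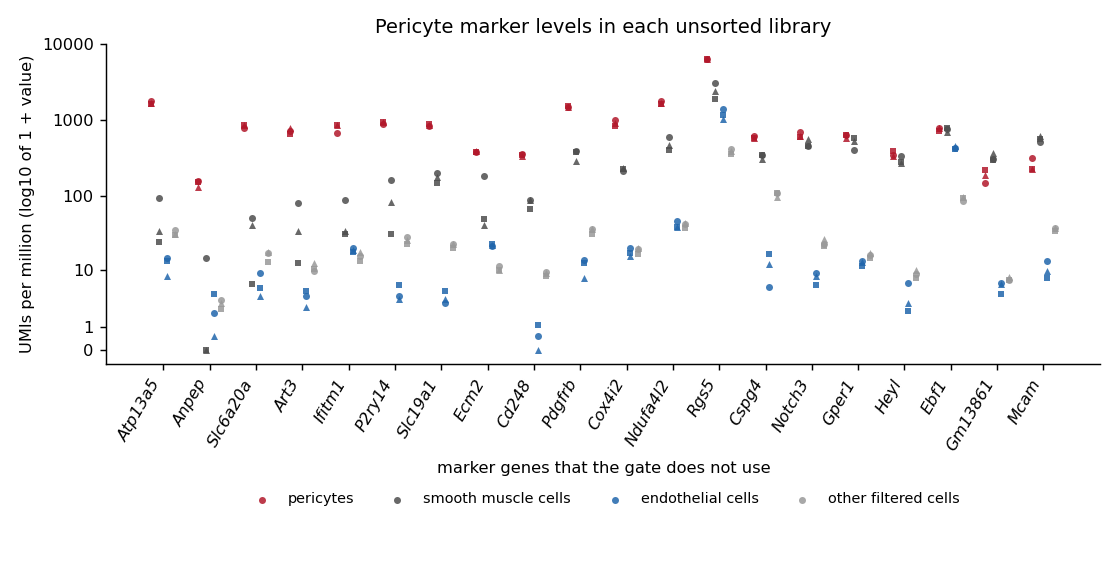
Level of the pericyte marker genes that the gate did not use (log10 of 1 + CPM, ticks in CPM), with 1 point per unsorted library (circle, square and triangle for mouse 1, 2 and 3) for pericytes, smooth muscle cells, endothelial cells and the other filtered cells. The pericyte points of each gene lie close together, as for Pdgfrb (1488, 1559 and 1491 CPM), and above those of the other filtered cells (37.2, 31.7 and 36.5 CPM).

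Among genes with a UMI in at least 25% of pericytes in each library, the largest difference from all other filtered cells was that of Nodal. The next genes lay within its standard error. Nodal stood at 225, 230.1 and 216 CPM in pericytes and 3.17, 2.61 and 3.12 CPM in the other cells (6.28 ± 0.19, adjusted p = 5.74e-27), with a UMI in 32.0% to 36.1% of pericytes. The groups did not overlap. Without the other cells past the marker limit the log2 fold change was 9.63, and that of Rem1 was larger at 10.58. Slc6a13, the GABA and taurine transporter GAT2, stood at 295, 292 and 246 CPM against 4.63, 2.91 and 4.12 CPM (6.21 ± 0.17, adjusted p = 4.75e-28). Slc6a13 is also a fibroblast gene: 45.2% of its pericyte UMIs were in the 18 cells described above, and without them it stood at 184, 142 and 164 CPM and the log2 fold change was 5.41.

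Enzymes that act at the capillary surface were among the 15 highest genes. Ggt1, the gamma-glutamyltransferase that starts the breakdown of glutathione, stood at 337, 312 and 320.0 CPM against 4.83, 4.04 and 5.03 CPM (6.17 ± 0.14, adjusted p = 1.78e-30). Enpep (aminopeptidase A, which shortens angiotensin II) stood at 342, 361 and 320.0 CPM (5.73 ± 0.13) and Anpep (aminopeptidase N, CD13) at 162, 156 and 132 CPM (5.69 ± 0.21). The pericyte and other sums of these 3 genes did not overlap in any library. Also among the 15 were Art3 (6.11 ± 0.10), Rem1, a small GTPase that limits calcium channels (5.89 ± 0.22), Atp13a5, Foxd1 (5.74 ± 0.11), the imino acid transporter Slc6a20a (5.74 ± 0.09), Ifitm1 (5.72 ± 0.09), Tbx3os1 (5.71 ± 0.12), the scavenger receptor Colec12 (5.66 ± 0.13) and the phospholipase Pla1a (5.66 ± 0.19). Tbx3os1 is antisense to Tbx3, and Slc6a20a has the near copy Slc6a20b, so their reads may not be fully separated from those of the partner.

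The 8 genes named as lowest were all at 0 UMIs in pericytes, which makes their differences lower bounds set by 3 UMIs over the 3 pericyte sums. The cytokine Tnf was at least 44.5-fold lower than in the other cells, the NADPH oxidase subunit Ncf1 at least 32.0-fold and Spi1, the PU.1 factor of myeloid cells, at least 28.5-fold. Cyth4 (30.9-fold), Dusp2 (28.8-fold), Slc7a14 (26.9-fold) and Alox5ap (25.0-fold) had bounds of the same kind. Lists of other cell types had the same direction. All 10 microglial markers (median -5.13), all 10 oligodendrocyte lineage markers (-3.67, and -5.50 without the 18 cells) and all 10 neuronal markers (-3.13) were lower, as were 6 of 10 astrocyte markers (median -1.46, and -1.27 with members at 0 UMIs set to their bound), where the other 4 were not called. Without the 18 cells 7 of 10 astrocyte markers were lower (-2.02). Of 16 endothelial markers 13 were lower, while Emcn and Esam were higher and Eng was not called (median -2.47).

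Transcripts of other cell types were not wholly absent from pericytes. The summed level of the endothelial list was 1196 to 1239 CPM in pericytes without a Cldn5 UMI and 2895 to 5367 CPM in those with 1 to 3, against 17911 to 18697 CPM in the cells with pericyte markers and 20 or more Cldn5 UMIs. The 6 oligodendrocyte genes named above summed to 96.0, 275 and 419 CPM in mouse 1, 2 and 3, and to 101, 75.1 and 119 CPM without the 18 cells. Pericytes and endothelium both held fewer such transcripts than the other filtered cells. Against endothelium 1 of 7 tested neuronal markers was higher (Meg3), 1 lower and 5 not called (median 0.31). Of 5 astrocyte markers 1 was higher (Slc1a3), 1 lower and 3 not called (0.46). Of 7 microglial markers 3 were higher and 4 not called (0.49), and 1 of 10 oligodendrocyte markers was lower and 9 not called (-0.80). Without the 18 cells 7 of the 10 were lower than in endothelium and 3 not called (-2.77). The part that transcripts from other cells had in the results below was not tested.

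Fibroblast genes were higher in the gated cells, and most of their UMIs lay in the 14 cells with fibroblast UMIs and without Kcnj8, Abcc9 or Higd1b. With all 503 cells, 8 of 9 tested members were higher than in the other cells and Pdgfra was lower (median 5.64), with the list's sum at 979.9 to 1067 CPM. Without the 18 cells the sum was 357 to 452 CPM, 5 of 8 tested members were higher, 1 was lower and 2 were not called. Decorin (Dcn), a small proteoglycan of connective tissue, went from 248, 163 and 356 CPM to 12.3, 16.1 and 13.9 CPM, and its log2 fold change from 6.32 to 2.13. Lum, Col1a1 and Col6a3 went to 0 UMIs. Col1a2, the alpha 2 chain of type I collagen, stood at 232, 259.8 and 216 CPM with all cells and 177, 156 and 158 CPM without the 18, and was higher than in the other cells either way (5.10 and 4.56). Col3a1 kept a log2 fold change of 5.47 after 6.43. Against smooth muscle cells the list had 5 of 6 tested members higher and 1 not called (median 3.80, 3.18 with bounds), and against endothelial cells all 8 tested members were higher (8.48, 6.81 with bounds). Without the 18 cells 2 members could be tested against smooth muscle, 1 higher and 1 not called (1.94), and 5 against endothelium, 4 higher and 1 not called (6.84).

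Compared with smooth muscle cells, the nearest mural type, pericytes had fewer transcripts of the contractile apparatus and more of most listed transporters and some laminins, while several mural markers did not differ enough to be called. All 3 comparisons used the same pericyte sums and are therefore not independent of each other. Of 4829 genes tested 1224 (25.3%) were called, 588 higher in pericytes (12.2%) and 636 lower (13.2%), with a median of 0.04 over all genes tested. This split rests on the scaling: TMM factors were 1.12 to 1.14 for pericytes and 0.858 to 0.915 for smooth muscle, and with plain library sizes 1460 genes were called, 995 higher and 465 lower, with a median of 0.38. A log2 fold change against smooth muscle is therefore lower than the ratio of the CPM values beside it. Smooth muscle was represented by 31, 34 and 32 cells, and its sums of 135435, 160622 and 143227 UMIs limit the precision. The smooth muscle group had no upper limit on pericyte markers and 22 of its 97 cells passed 6 of them. Its mouse 1 sum held more pericyte transcripts than the others, as with Kcnj8 at 81.2, 6.23 and 0 CPM in mouse 1, 2 and 3.

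Of the contractile list, which the gate did not use, 17 of 19 tested members were lower in pericytes and the other 2, Cald1 and Ppp1r14a, were not called (median -3.14). Tpm2, a tropomyosin, stood at 131, 141 and 139.7 CPM in pericytes and 3197, 3262 and 3093 CPM in smooth muscle cells (-4.83 ± 0.12, adjusted p = 4.14e-25). Myl9, the regulatory myosin light chain, stood at 1523, 1631 and 1569 against 5744, 5317 and 6060.3 CPM (-2.15 ± 0.09, adjusted p = 8.78e-20). The groups did not overlap for either gene. Caldesmon (Cald1), an actin-binding protein, was at 3615, 3521 and 3624 CPM in pericytes and 2259, 2359.6 and 2472 CPM in smooth muscle, a difference of 0.30 ± 0.09 that was under the size for a call. Most contractile genes were detected in pericytes, with 1 of the 20 list members (Actg2) at 0 UMIs. Against the other filtered cells 10 of 19 were higher, 2 lower and 7 not called (median 1.49), Myl9 by 4.30 ± 0.08 and Cald1 by 4.51 ± 0.06. Against endothelial cells 8 of 15 were higher, 1 lower and 6 not called (2.99).

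Genes named as lowest against smooth muscle cells were led by phospholamban (Pln), the inhibitor of the sarcoplasmic calcium pump, with 2 UMIs in all pericytes and 825 in the smooth muscle cells, a smooth muscle to pericyte ratio of 1150.1 (95% counting interval 317 to 9513). Sh3bgr and Etnk2 were at 0 UMIs in pericytes and at least 47.4-fold and 40.0-fold lower. Gamma-synuclein (Sncg) stood at 0, 9.90 and 0 CPM against 879, 560.3 and 768 CPM (-7.91 ± 0.32, adjusted p = 1.54e-19). The actin-associated genes Palld (3 pericyte UMIs), Pdlim3 (2), calponin Cnn1 (2) and the F-box gene Fbxl22 (1) completed the 8, with ratios of 265 (95% counting interval 89.7 to 1292), 276 (75.4 to 2295), 151 (40.7 to 1259) and 304 (53.4 to 12112).

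Highest against smooth muscle cells was Slc22a8, the organic anion transporter OAT3, at 375, 428 and 422 CPM and 2 UMIs in all smooth muscle cells, a pericyte to smooth muscle ratio of 89.5 (95% counting interval 24.6 to 741). Ggt1 was next at 71.0 (95% counting interval 19.5 to 588), also on 2 UMIs. Cthrc1, a secreted collagen triple helix repeat protein (65.8, 18.1 to 545), the sialomucin Emcn (64.7, 17.8 to 537), Tmem86a (64.9, 11.5 to 2578), Pla1a (43.4, 11.9 to 360.4) and Nodal (32.8, 11.1 to 159.8) followed, each on 1 to 3 smooth muscle UMIs and with its CPM ratio and interval in brackets. Atp13a5, the only one of the 8 with more, stood at 96.0, 24.9 and 34.9 CPM in smooth muscle of mouse 1, 2 and 3 (4.79 ± 0.21, adjusted p = 6.32e-19). The pericyte markers as a list had 13 of 20 members higher, 2 lower and 5 not called (median 1.75). Pdgfrb (1.79 ± 0.13), the UDP-glucose receptor P2ry14 (3.09 ± 0.23) and the folate carrier Slc19a1 (1.98 ± 0.16) were higher. Mcam (-1.42 ± 0.16) and the noncoding Gm13861 (-1.09 ± 0.18) were lower, the latter not called without the 18 cells or with plain library sizes (-0.74). Notch3 (696, 599 and 627 against 465, 467 and 566 CPM, 0.06 ± 0.14), the Notch target Heyl (-0.02 ± 0.16) and the estrogen receptor Gper1 (-0.02 ± 0.14) were not called with either scaling (0.41, 0.33 and 0.33 with plain library sizes). Without the 22 smooth muscle cells past the marker limit the list's median was 2.21, with 13 members higher and 2 lower.

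Compared with endothelial cells, which line the same vessels, pericytes differed in ligands and receptors of the signalling pairs and in nearly every marker of either type. Of 9765 genes tested 2782 (28.5%) were called, 1305 higher in pericytes (13.4%) and 1477 lower (15.1%), with a median of -0.01 over all genes tested. Of the pericyte markers 19 of 20 were higher (median 5.74), and Ebf1, a transcription factor at 789, 728 and 799.9 CPM in pericytes and 432, 427 and 457 CPM in endothelium, was not called (0.71 ± 0.08). Of the endothelial markers 15 of 16 were lower (median -5.40) and Esam, an adhesion molecule, was not called at 419, 428 and 503 against 812, 859 and 809 CPM (-0.99 ± 0.08). Emcn stood at 314, 272 and 297 CPM in pericytes and 685, 633 and 599 CPM in endothelium (-1.23 ± 0.09, adjusted p = 1.51e-12), and at 2 UMIs in all smooth muscle cells. Eng, a TGF-beta co-receptor, stood at 251, 203 and 198 against 722, 717 and 757 CPM (-1.86 ± 0.10). Against smooth muscle the endothelial list had 4 of 8 tested members higher and 4 not called (1.12), the 4 being Emcn, Eng, Itm2a and Flt1.

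The 8 genes named as highest against endothelium were led by Carmn, a long noncoding RNA of mural cells, with 0 UMIs in 1546 endothelial cells and at 173, 161 and 117 CPM in pericytes, at least 291-fold higher. Cd248 (endosialin), a mural membrane protein, stood at 363, 356 and 343 CPM against 3 endothelial UMIs (ratio 683, 232 to 3325). Gprc5c rested on 3 endothelial UMIs (422, 143 to 2058) and the noncoding Adap2os, antisense to Adap2 and not surely separated from it, on 1 (1105, 196 to 43817). The others were Foxd1 (7.99 ± 0.18), Nodal (8.02 ± 0.28), the sphingosine 1-phosphate receptor S1pr3 (7.97 ± 0.20) and Slc6a13 (8.05 ± 0.28, 7.28 without the 18 cells). Lowest were AU021092, Tmem252 and 8430408G22Rik, at 0 UMIs in pericytes and at least 83.0-fold, 74.5-fold and 65.9-fold lower. Gch1, the first enzyme of tetrahydrobiopterin synthesis, the T-box factor Tbx1, Rassf9, Ccm2l and Rab11fip1 each had 1 pericyte UMI, with endothelium to pericyte ratios of 155 (95% counting interval 27.8 to 6141), 141 (25.3 to 5589), 183 (32.7 to 7220.3), 161 (28.8 to 6375) and 141 (25.3 to 5597).

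**Figure D4:**
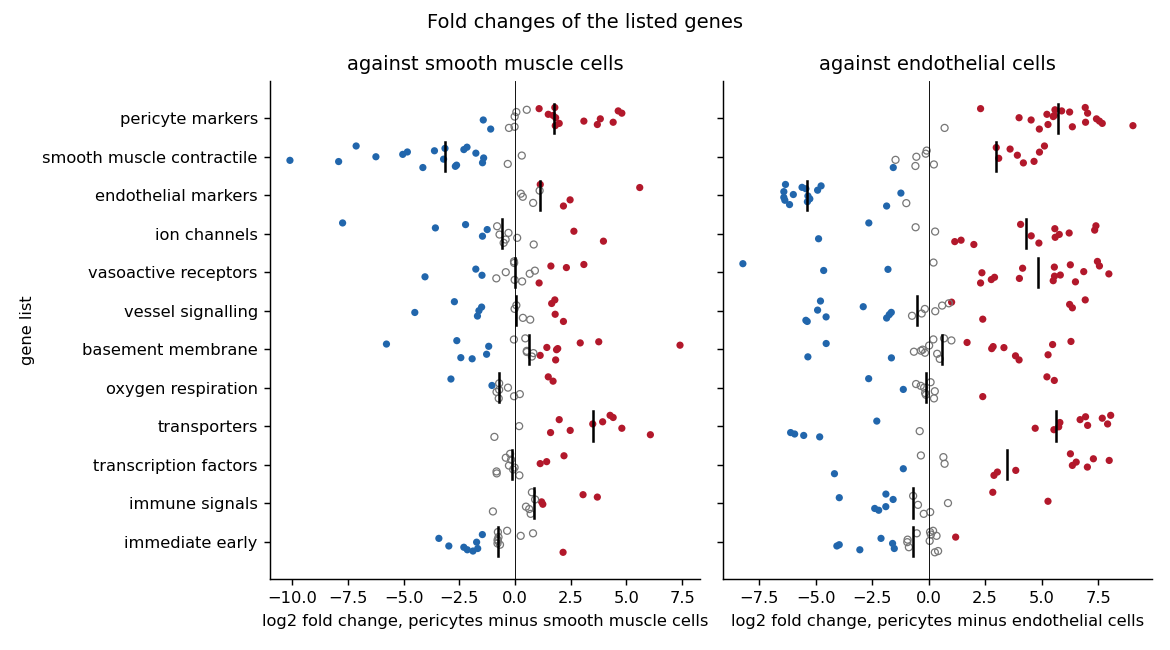
Log2 fold changes of the tested members of the gene lists, pericytes over smooth muscle cells (left) and over endothelial cells (right). Each point is a gene, red where called higher, blue where called lower and open where not called, and the black bar is the median of the list. The median of the pericyte markers lies at 1.75 and 5.74, and that of the contractile list at -3.14 and 2.99.

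Pericytes held the transcripts of the vascular K-ATP form, with no UMI of the other form detected, together with connexins and a calcium-activated chloride channel. Beside Kcnj8 and Abcc9, the subunits of the pancreatic and neuronal form, Kcnj11 and Abcc8, were at 0 UMIs in pericytes, which allows up to 2.45 CPM over the 3 sums. In the other cells they averaged 4.49 and 2.83 CPM. Of 21 tested members of the list 11 were higher than in the other cells, 4 lower and 6 not called (median 1.03, 1.37 with bounds). Ano1, the calcium-activated chloride channel of mural cells, stood at 213, 228 and 282 CPM in pericytes, 207, 156 and 189 CPM in smooth muscle and 5.53, 4.89 and 3.08 CPM in endothelium. It did not differ from smooth muscle beyond error (0.10 ± 0.19) and was 5.60 ± 0.21 above endothelium. The connexins Gja4 (290.5, 339 and 335 CPM) and Gjc1 (590.3, 601 and 576 CPM), which form gap junctions, were above endothelium (4.88 ± 0.17 and 2.00 ± 0.09) and uncalled against smooth muscle (-0.51 ± 0.16 and 0.84 ± 0.16), where plain library sizes gave -0.16 and a called 1.19.

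Pericytes and smooth muscle cells differed in the calcium release gene Itpr2 and in several potassium channel genes. Itpr2, an inositol trisphosphate receptor, stood at 218, 228 and 234 CPM in pericytes against 29.5, 0 and 6.98 CPM in smooth muscle (3.97 ± 0.43, adjusted p = 3.00e-09), higher in each pericyte sum. Of 14 tested members 2 were higher, 5 lower and 7 not called (median -0.60). The lower ones were potassium channel genes and a calcium channel subunit: Kcnma1, the BK channel pore (-3.57 ± 0.54), its beta subunit Kcnmb1 (-1.25 ± 0.24, not called at -0.90 with plain library sizes), the background potassium channel Kcnk3 (-2.22 ± 0.23), Cacnb2 (-1.46 ± 0.41) and Kcna5, at 0 pericyte UMIs and at least 33.5-fold lower. Itpr1 (-0.42 ± 0.19) and the L-type calcium channel Cacna1c (-0.29 ± 0.30) were not called. Against endothelium 12 of 16 tested members were higher, 2 lower and 2 not called (4.30), the lower ones being Kcnj2 (-2.64 ± 0.70) and the mechanically gated Piezo1 (-4.87 ± 0.41).

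Ndufa4l2 and Cox4i2, tissue-restricted relatives of common respiratory chain subunits, were high in pericytes, and the common form Ndufa4 was low. Ndufa4l2 stood at 1776, 1650.5 and 1712 CPM in pericytes, 613, 405 and 482 CPM in smooth muscle and 47.7, 39.6 and 39.0 CPM in endothelium. Its paralog Ndufa4, a subunit of cytochrome c oxidase in most cells, stood at 86.7, 91.6 and 78.7 CPM in pericytes against 479.9, 492 and 573 and 450.1, 529.5 and 526 CPM. For both genes the pericyte sums lay outside the range of each other group. Ndufa4l2 was higher by 5.40 ± 0.08, 1.49 ± 0.12 and 5.23 ± 0.09 on the log2 scale against the other cells, smooth muscle and endothelium, and Ndufa4 differed by -3.21 ± 0.11, -2.87 ± 0.18 and -2.65 ± 0.12 (adjusted p 4.51e-25, 4.60e-15 and 3.94e-17). Cox4i2, the second isoform of cytochrome c oxidase subunit 4, stood at 998, 834 and 924 CPM and was higher by 5.63 ± 0.08, 1.71 ± 0.15 and 5.56 ± 0.11. The common isoform Cox4i1 stood at 729, 723 and 782 CPM and was called in none of the 3 comparisons (-0.24 ± 0.07, -0.71 ± 0.12 and 0.09 ± 0.07).

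**Figure D5:**
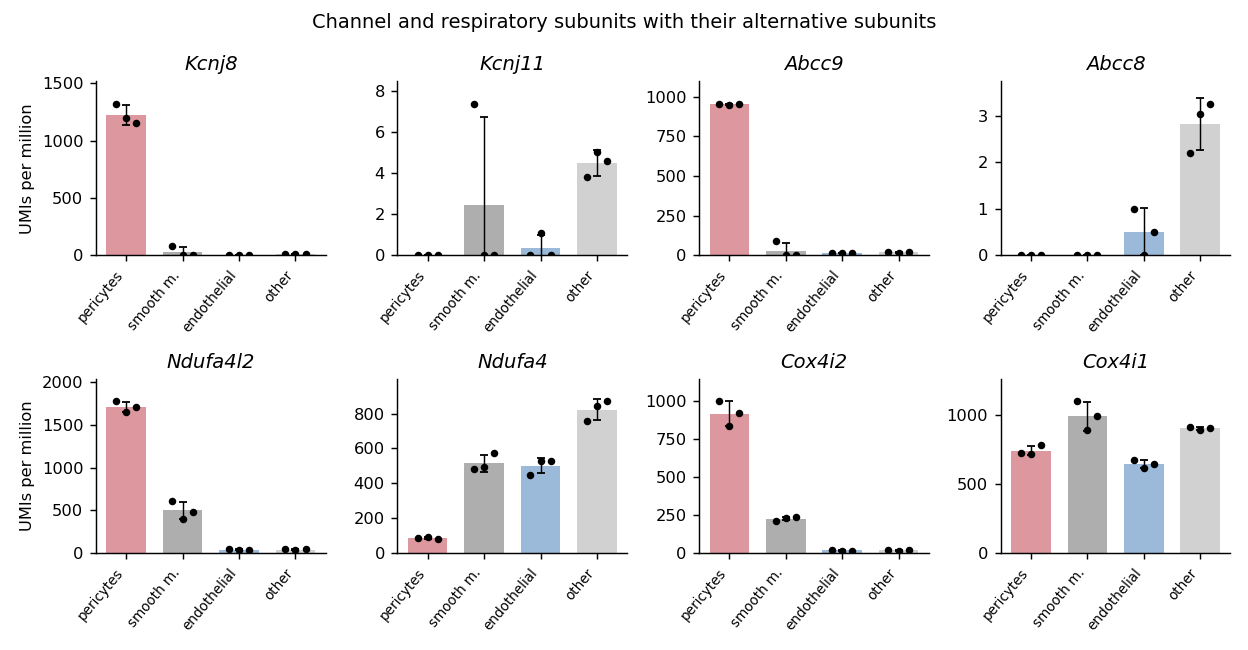
Levels of the channel subunits Kcnj8, Kcnj11, Abcc9 and Abcc8 and of the respiratory subunits Ndufa4l2, Ndufa4, Cox4i2 and Cox4i1 (CPM, linear axes that start at 0 and differ between panels). Bars are the mean and error bars the SD of the 3 unsorted libraries, shown as points, for pericytes, smooth muscle, endothelial and other filtered cells. In pericytes Ndufa4 stands at 86.7, 91.6 and 78.7 CPM, below the other groups, while Cox4i1 (729, 723 and 782 CPM) lies above endothelium and below smooth muscle and the other cells.

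Over the whole oxygen list, these subunits included, members were called in both directions in each comparison. Of all genes tested 34.2%, 25.3% and 28.5% were called against the other cells, smooth muscle and endothelium. Against the other cells 5 of 15 tested members were higher, 2 lower and 8 not called (median -0.24), against smooth muscle 2 of 11 were higher, 2 lower and 7 not called (-0.71), and against endothelium 3 of 13 were higher, 2 lower and 8 not called (-0.12). Epas1, which encodes the hypoxia-inducible factor HIF-2 alpha, stood at 548, 589 and 554 CPM in pericytes and 1146, 1129 and 1134 CPM in endothelium (-1.12 ± 0.07, not called at -0.99 with plain library sizes), and was 1.49 ± 0.07 above the other cells. Arnt (1.04 ± 0.19, not called without the 18 cells) and Cox7a1 (2.16 ± 0.60, on 12 pericyte UMIs) were also higher than in the other cells, and Higd1a was lower than in smooth muscle (-1.03 ± 0.25, not called at -0.69 with plain library sizes). Hif1a did not differ enough for a call in any comparison. Egln3, an oxygen-sensing prolyl hydroxylase, was at 0 UMIs and at least 4.88-fold lower than in the other cells. Vegfa was higher than in endothelium (2.40 ± 0.40) with all cells, and too low to be tested there without the 18 cells, where its difference from the other cells went from -0.56 to -1.94.

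Receptors for vasoactive signals set pericytes apart from endothelium and the other cells more than from smooth muscle. Of 26 tested members 17 were higher than in the other cells, 5 lower and 4 not called (median 2.38). Against endothelium 16 of 20 were higher, 3 lower and 1 not called (4.84), against smooth muscle 4 of 15 higher, 3 lower and 8 not called (-0.02, 0.33 with plain library sizes). Ednra, the endothelin A receptor, stood at 143, 151 and 163 CPM in pericytes, 126, 93.4 and 168 CPM in smooth muscle and 0.502, 1.09 and 0.513 CPM in endothelium. The first 2 groups overlapped (-0.04 ± 0.23) and endothelium lay below both (7.47 ± 0.31). Both subunits of the nitric oxide receptor, Gucy1a1 (328, 384 and 262 CPM) and Gucy1b1 (743, 700.3 and 777 CPM), were uncalled against smooth muscle (-0.41 ± 0.16 and 0.66 ± 0.14, the second called at 1.01 with plain library sizes) and higher than in endothelium (5.83 ± 0.18 and 5.57 ± 0.12).

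The 4 members higher than in smooth muscle were receptors and a regulator of receptor signalling. P2ry14 stood at 907, 945 and 952 CPM against 162, 31.1 and 83.8 CPM (3.09 ± 0.23, adjusted p = 3.45e-13), and Tbxa2r, the thromboxane receptor, at 309, 269.7 and 302 against 59.1, 37.4 and 48.9 CPM (2.31 ± 0.26, adjusted p = 6.68e-09). The adenosine receptor Adora2a (1.61 ± 0.32) and Rgs5 (1.08 ± 0.09) were the others. Lower were the cyclic nucleotide phosphodiesterases Pde3a (42.2, 81.7 and 55.9 against 761, 735 and 922 CPM, -4.04 ± 0.19) and Pde5a (-1.48 ± 0.17), which end cAMP and cGMP signals, and the neuropeptide Y receptor Npy1r (-1.76 ± 0.20). Ednrb was uneven between libraries at 39.8, 4.95 and 0 CPM, and against endothelium its difference of 0.22 became -2.81 without mouse 1.

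In the signalling pairs of the vessel wall, pericytes held the receptors Pdgfrb and Notch3, and endothelium held Pdgfb. Pdgfb stood at 35.1, 4.95 and 5.08 CPM in pericytes and 403, 406 and 386 CPM in endothelium (-4.78 ± 0.23, adjusted p = 1.48e-16). Notch3 stood at 696, 599 and 627 against 9.04, 5.97 and 8.21 CPM (6.24 ± 0.13, adjusted p = 2.31e-24). Neither pair of groups overlapped. Notch1 stood at 464, 475 and 485 CPM, higher than in smooth muscle (140.3, 80.9 and 154 CPM, 1.65 ± 0.20, adjusted p = 4.08e-08) and uncalled against endothelium (0.89 ± 0.09, called at 1.03 with plain library sizes). The Notch ligand Jag1 (-1.50 ± 0.21) and the target Hes1 (-1.62 ± 0.15) were lower than in smooth muscle, as were Pdgfa (-2.72 ± 0.19), Tgfb2 (-1.68 ± 0.25) and Angpt1 (-4.49 ± 0.67), while Tgfb1 was higher (1.80 ± 0.40). Angpt1, a ligand of the endothelial receptor Tek, stood at only 2.34, 4.95 and 2.54 CPM in pericytes and 66.5, 43.6 and 97.7 CPM in smooth muscle. Over the list 8 of 22 tested members were higher than in the other cells, 7 lower and 7 not called (median 0.24), 4 of 13 higher than in smooth muscle, 5 lower and 4 not called (0.06), and 5 of 20 higher than in endothelium, 9 lower and 6 not called (-0.52).

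Basement membrane genes separated pericytes from smooth muscle by laminin chain. Lama2 stood at 138, 191 and 139.7 CPM in pericytes and 14.8, 6.23 and 6.98 CPM in smooth muscle (3.76 ± 0.45, adjusted p = 2.57e-08), and Lama4 at 180.4, 166 and 175 against 22.2, 18.7 and 14 CPM (2.93 ± 0.37, adjusted p = 6.74e-08). Lama5 had the opposite order, 2.34, 4.95 and 0 against 111, 99.6 and 182 CPM (-5.77 ± 0.55, adjusted p = 1.77e-10). None of the 3 overlapped between the groups. Lamb1 (84.3, 76.7 and 78.7 CPM) was at 0 UMIs in smooth muscle, at least 11.7-fold higher in pericytes, whereas Lamb2 was lower (-1.18 ± 0.18, not called at -0.83 with plain library sizes). The gamma chains Lamc1 (1.43 ± 0.21) and Lamc3 (1.92 ± 0.30), the linker nidogen Nid1 (1.86 ± 0.22), the proteoglycan Bgn (1.13 ± 0.15) and Ecm2 (1.82 ± 0.26) were higher. Timp3, an inhibitor of matrix proteases (-2.43 ± 0.15), Sparcl1 (-1.27 ± 0.09, not called at -0.92 with plain library sizes), the protease inhibitor Serpine2 (-1.92 ± 0.21) and Col18a1 (-2.61 ± 0.42) were lower. Col4a1 and Col4a2, the network collagen of all basement membranes, were uncalled against smooth muscle (0.46 ± 0.17 and -0.05 ± 0.19) and endothelium (0.68 ± 0.08 and 0.21 ± 0.11).

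Over the whole basement membrane list 17 of 22 members were higher than in the other cells, 3 lower and 2 not called (median 2.71), 8 of 20 higher than in smooth muscle, 6 lower and 6 not called (0.64), and 9 of 22 higher than in endothelium, 3 lower and 10 not called (0.59). Fibronectin (Fn1) was lower than in endothelium (28.1, 34.6 and 12.7 against 933, 971 and 965 CPM, -5.34 ± 0.15). Col18a1 rested on the 18 cells: against the other filtered cells its log2 fold change was 1.65 with them and -1.71, not called, without them.

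Transporter genes were mostly higher in pericytes than in smooth muscle. There 9 of 11 tested members were higher, none lower and 2 not called (median 3.49, and 5.24 without the 22 smooth muscle cells past the marker limit). Against the other cells 11 of 18 were higher, 4 lower and 3 not called (4.35), and against endothelium 10 of 16 higher, 5 lower and 1 not called (5.65). Slc30a10, a manganese exporter (251, 249.9 and 292 CPM), differed by 3.93 ± 0.41 and 6.70 ± 0.23 from smooth muscle and endothelium, and Slc16a12, a creatine transporter (192, 153 and 142 CPM), by 3.49 ± 0.42 and 5.81 ± 0.27. Slc38a11 (422, 463 and 416 CPM) was higher than in endothelium (7.92 ± 0.19) and uncalled against smooth muscle (0.19 ± 0.17). Slc22a8 had the opposite pattern, uncalled against endothelium (375, 428 and 422 against 502, 492 and 498 CPM, -0.39 ± 0.09). Carriers of the endothelial barrier were lower than in endothelium, among them Slc7a5 (-6.10 ± 0.17), Slco1c1 (-5.93 ± 0.15), Slc16a1 (-5.53 ± 0.19) and Abcg2 (-4.82 ± 0.13).

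Mural transcription factors were mostly higher than in endothelium, and their share of calls against smooth muscle was near that of all genes. Of 14 tested members 12 were higher than in the other cells and 2 not called (median 3.22), and 9 of 14 were higher than in endothelium, 2 lower and 3 not called (3.45). Against smooth muscle Foxf2, Foxd1 and Zic1 of 12 were higher, none lower and 9 not called (-0.13, 0.22 with plain library sizes). Of all genes tested there 25.3% were called, 12.2% higher. Foxf2, a forkhead factor, stood at 199, 171 and 137 CPM in pericytes, 51.7, 12.5 and 27.9 CPM in smooth muscle and 186, 215 and 197 CPM in endothelium (2.20 ± 0.34 and -0.34 ± 0.12, the second not called). Foxd1 stood at 489.6, 532 and 488 against 162, 131 and 168 CPM in smooth muscle (1.42 ± 0.18, adjusted p = 1.27e-07), and Zic1 at 869, 876 and 869 against 317, 299 and 356 CPM (1.13 ± 0.14, adjusted p = 6.57e-08). The pericyte and smooth muscle sums of these 3 did not overlap. Tbx18 (-0.22 ± 0.20), Tbx2 (-0.08 ± 0.19), Foxs1 (-0.17 ± 0.18) and Nr2f2 (0.20 ± 0.15) were uncalled against smooth muscle and higher than in endothelium by 6.27 ± 0.23, 7.02 ± 0.23, 7.29 ± 0.24 and 3.04 ± 0.10.

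Immune genes were called in both directions against the other cells and endothelium, and none was called lower than in smooth muscle. Against the other cells 7 of 17 tested members were higher, 4 lower and 6 not called (median -0.07, 0.06 with bounds), against smooth muscle 4 of 10 higher and 6 not called (0.83), and against endothelium 2 of 13 higher, 6 lower and 5 not called (-0.68). Without the 18 cells 5 were higher and 6 lower than in the other cells (-0.14), and 2 higher and 7 lower than in endothelium (-1.90). Ifitm1, an interferon-induced membrane protein, stood at 675, 876 and 863 CPM in pericytes, 88.6, 31.1 and 34.9 CPM in smooth muscle and 20.1, 17.9 and 19.0 CPM in endothelium (3.69 ± 0.24 and 5.28 ± 0.12). The class I gene H2-D1 was lower than in endothelium (302, 292 and 262 against 989.5, 985 and 978 CPM, -1.89 ± 0.08), as was B2m (-2.21 ± 0.09). Cxcl12, a chemokine, stood at 389, 509.7 and 366 CPM, 1.17 ± 0.09 above the other cells and 0.94, not called, without the 18 cells. All 20 pericyte UMIs of the adhesion molecule Vcam1 were in those 18 cells, so that its level without them was 0.

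Immediate early genes, which rise within minutes of stimulation and of tissue dissociation, were present in all groups. Fos stood at 3886, 3625 and 3007 CPM in pericytes, 3699, 3325 and 3875 CPM in smooth muscle and 2849, 2845 and 2779.6 CPM in endothelium. It was higher than in the other cells (1.63 ± 0.06) and uncalled against smooth muscle (-0.35 ± 0.09) and endothelium (0.20 ± 0.06). Of 18 members 4 were higher than in the other cells, 2 lower and 12 not called (median 0.38), against smooth muscle 1 was higher, 8 lower and 9 not called (-0.78), and against endothelium 1 was higher, 6 lower and 11 not called (-0.70). The share of members called was near that of all genes tested against the other cells (6 of 18, with 34.2% of all genes), while it was 9 of 18 against smooth muscle (25.3% of all genes) and 7 of 18 against endothelium (28.5%). Atf3, a stress-induced factor, was lower in all 3 comparisons (-1.48 ± 0.11, -3.42 ± 0.16 and -2.11 ± 0.13), and Klf2 and Klf4, factors of the flow response of endothelium, were lower than there (-3.95 ± 0.09 and -4.06 ± 0.11). Hspa1a, a heat shock gene with a near-identical copy, was higher than in smooth muscle (2.16 ± 0.13). The part of the dissociation in these levels was not tested.

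The viral feature was rare in pericytes. At least 1 viral UMI was found in 17 of 503 cells, 3.41% ± 0.571 (SD, n = 3 libraries) at a median depth of 2318 UMIs, with at most 2 in a cell. Endothelial cells had a share of 3.09% ± 1.06 at a median of 2860.5 UMIs, microglia-gated cells 3.96% ± 0.474, and the excitatory neurons of the metadata 58.8% ± 2.03. With cells of at least 2000 UMIs thinned to that number, and shallower cells left out, the shares were 3.33% ± 1.50 in pericytes (12 of 363 cells, from 503), 1.54% ± 0.962 in endothelial cells, 1.99% ± 0.273 in microglia and 32.1% ± 0.977 in excitatory neurons. Pericytes lay between endothelial and microglia-gated cells before thinning and above both means after it, on 12 cells, and these differences were not tested.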

How the data were processed

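The deposited values were raw UMI counts of 31053 genes and 1 viral feature per cell, which the authors made with Cell Ranger 3.0.2 (per the file headers) against mm10, with no normalisation. The submitters' processing notes also name Seurat 3.1.4. The authors' metadata file served only to leave out excitatory neurons by barcode. Cells of 3 unsorted libraries were gated as described, and the UMI counts of each group were added up within each library. These sums were compared by the quasi-likelihood F test of edgeR 4.0.16, after filterByExpr and TMM scaling, with Benjamini-Hochberg adjustment over all genes tested. The library was a block, since both sums of a pair came from the same library. The 13 gate genes and the viral feature were left out of tests and library sizes. CPM values are UMI counts scaled to 1000000 UMIs of the sum, without TMM factors, and ± after a log2 fold change is its standard error, |log2 fold change| divided by the root of F. Members and gene lists were chosen with earlier results of these data known. The text names the 15 highest and 8 lowest called genes against the other cells (a UMI in at least 25% of pericytes, or 10% of the other cells, of each library), the 8 highest and 8 lowest in the other comparisons (25% of the higher group), and members of 17 lists, and a few of all these genes are not reported here. The 18 cells against the label, the use of plain library sizes and the cells past the marker limit in other groups were examined after seeing the data. Intervals and limits cover counting error only. No doublet caller was run, and the upper limits on genes and UMIs were the study's guard against doublets. Libraries shared 5 to 30 cell barcodes per pair. edgeR was tested on simulated data, DESeq2 1.42.0 and other settings were run as alternatives, and promoters came from RefSeq tables.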

Additional observations from a re-analysis of the deposited data

How the results depend on the processing

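Smooth muscle sums came from 97 cells, and low genes there rest on few UMIs. All 3 comparisons used the same pericyte sums, and the 3 libraries give little power for low genes. Without 1 library at a time the genes called ranged from 3951 to 4447 against the other cells, from 1067 to 1194 against smooth muscle and from 2751 to 2823 against endothelium. Without the library block, which pairs the sums of a library, 5197, 1239 and 2794 genes were called, and no named gene lost its call. With sums thinned to equal totals 2853 of 7601 tested genes were called against the other cells (1155 higher and 1698 lower), where fewer genes passed the filter. With DESeq2's Wald test 808 genes were called against smooth muscle (301 higher and 507 lower), and the cause was not tested. The stricter gate asked for at least 10 marker UMIs and for no UMI of Cldn5, Cx3cr1, P2ry12, Slc17a7, Gad1 or Gad2. It gave a pericyte share of 3.48% of cells absent from the metadata, 2.09% of all filtered cells, and a viral share of 2.70%. At least 1000 genes per cell gave shares of 4.10% and 2.40%. Without the 18 cells against the label, fitted signs changed against the other cells for Col18a1 (-1.71), Col6a3 (-7.82), Gjb6 (-3.18) and Lum (-7.06). The sign of Pdgfra (-0.12) changed against endothelium. Of these genes only Gjb6 was called without the 18 cells. Col6a3 and Lum were then at 0 UMIs in pericytes, so their fitted values give no size. The other cells averaged 2.31 and 1.35 CPM of them. This is below the 2.45 CPM of 3 UMIs over the 3 pericyte sums, so their direction could not be decided. Without 1 library at a time Ednrb ranged from -2.81 to 1.09 and Vcan from -2.51 to 0.82 against endothelium, both changing sign without mouse 1. The microglial gene C1qb changed sign there with the stricter gate (-1.46). That gate admits no cell with a Cx3cr1 or P2ry12 UMI, so it is no independent check of a microglial gene. No gene that the rule names lost its call in any alternative. Over named genes, list members and alternatives, 27 values gained and 58 lost a call against the other cells, 31 and 26 against smooth muscle, and 29 and 19 against endothelium, while 3392, 2212 and 2681 did not change. Counted apart from these were 4 values against the other cells, 0 against smooth muscle and 4 against endothelium. Their fitted sign changed, with a call in either setting.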
